A study of Mus musculus with 45 samples.

Results

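The comparison covers mouse induced pluripotent stem cell (iPSC) lines at passage 16, made with a secondary reprogramming system from T cells and from tail tip fibroblasts (TTF) of the same animal, called mouse 2. Arrays were taken by their labels: 3 clones from T cells and 3 from TTF, so 6 of the 45 arrays of the series. In a secondary system the cells of an animal already carry the reprogramming factors as inducible transgenes. All lines were kept in serum and LIF on irradiated embryonic fibroblast feeders, and were trypsinized and preplated to remove these feeders before total RNA was taken. The labels give no batch and no genotype that separates the groups. Used beside these are the T cell and TTF lines of mouse 2 at passages 4 and 10 and its B cell and granulocyte lines at passages 4 and 16, each with 3 clones. The spread behind each p-value of passages 4 and 16 was estimated over 33 arrays, which also hold granulocyte lines of mouse 1 at passages 4 and 16 and lines labelled SMP of mouse 1 at passage 6, again with 3 clones each. Because every clone compared came from 1 mouse, the p-values below measure how much clones vary, and nothing of how much animals do.

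Reprogramming switches on a self-sustaining network of transcription factors, with Pou5f1, Nanog and Sox2 at its centre, and silences the program of the donor cell. In early passages iPSC lines can keep traces of the donor cell's expression and DNA methylation, and continued culture tends to reduce them. The imprinted Dlk1-Dio3 domain, whose maternal copy makes the noncoding RNAs Meg3 and Rian, is widely used in mouse iPSC work, where lines that silence it contribute poorly to chimaeras. Classical class I molecules of the major histocompatibility complex, with heavy chains made by H2-K1 and H2-D1, present peptides to cytotoxic T cells and are low in pluripotent cells.

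The arrays bear the labelled iPSC state, and no T cell marker passed the test between the groups. Pou5f1 was at 11.52, 11.43 and 11.32 (log2) in T cell clones 1 to 3 and at 11.45, 11.35 and 11.07 in TTF clones 1 to 3, and these values overlap. The mean of 25 T cell marker genes was 4.56 ± 0.19 (SD, n = 3) in T cell lines and 4.48 ± 0.09 in TTF lines. One T cell array stood apart: clone 3 correlated with the other 5 arrays at r from 0.9712 to 0.9804, against 0.9847 to 0.9945 among those 5. Granulocyte clone 3 of passage 16 correlated at 0.910 to 0.923 with those 5 arrays and at 0.940 with T cell clone 3. It enters the comparison of T cell and TTF lines only through the shared estimate of the spread. It is also part of the granulocyte means of passage 16 given below. The T cell marker mean was 4.78 in T cell clone 3 and 5.10 in granulocyte clone 3, the highest of the 12 arrays of passage 16, and these arrays were likewise highest for the means of the granulocyte (4.72 and 5.22), B cell (5.63 and 5.77) and Hox cluster lists (4.55 and 5.19), so the shift was not particular to markers of 1 cell type. Their part in the differences below was not tested beyond the fits without them.

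T cell and TTF lines differed in 97 of 11807 genes (0.822%) by limma's moderated test at a Benjamini-Hochberg adjusted p under 0.05. In T cell lines 34 genes (0.288%) were higher and 63 (0.534%) were lower, and 60 of the 97 differed at least 2-fold. The differences ran from 0.55 to 2.54 on the log2 scale. The lower genes were led by H2-K1, Meg3, Snhg11, Hspa4l, Rab3il1 and Satb1, and the higher ones by Krtdap, Serpinb9b, Mobp, Taf7l, Npy and Foxd3. At an unadjusted p under 0.05 stood 1572 genes, and in 2370 genes (20.1%) the T cell and TTF clones did not overlap. The count moved with single clones, though leaving out a clone also leaves fewer arrays to test with. It was 60 without T cell clone 1, 111 without T cell clone 2 and 41 without T cell clone 3. Without TTF clones 1, 2 and 3 in turn it was 21, 33 and 69. It was 421 without granulocyte clone 3 in the fit of 33 arrays, 24 when only the 6 arrays were fitted, and 0 when the 12 arrays of passage 16 were fitted (867 genes at an unadjusted p under 0.05). A fit of those arrays without granulocyte clone 3 called 34 genes. The split into higher and lower was 47 and 55 after quantile normalization.

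In each of the 6 fits that left out 1 clone of the groups compared, 14 of the 97 genes were called. These were H2-K1, H2-D1, Hspa4l, Satb1, H2bc22, Limd2, Specc1, Mertk, Acer2 and Serpini1 among the lower genes, and Taf7l, Npy, Fhit and Arc among the higher. A further 16 of the 97 were called in none of the 6 fits. After quantile and cyclic loess normalization and with the probe sets of a gene averaged, each of the 97 kept its sign. Leaving out a clone could not turn a sign, since the clones of the groups do not overlap for any of the 97.

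**Figure D1:**
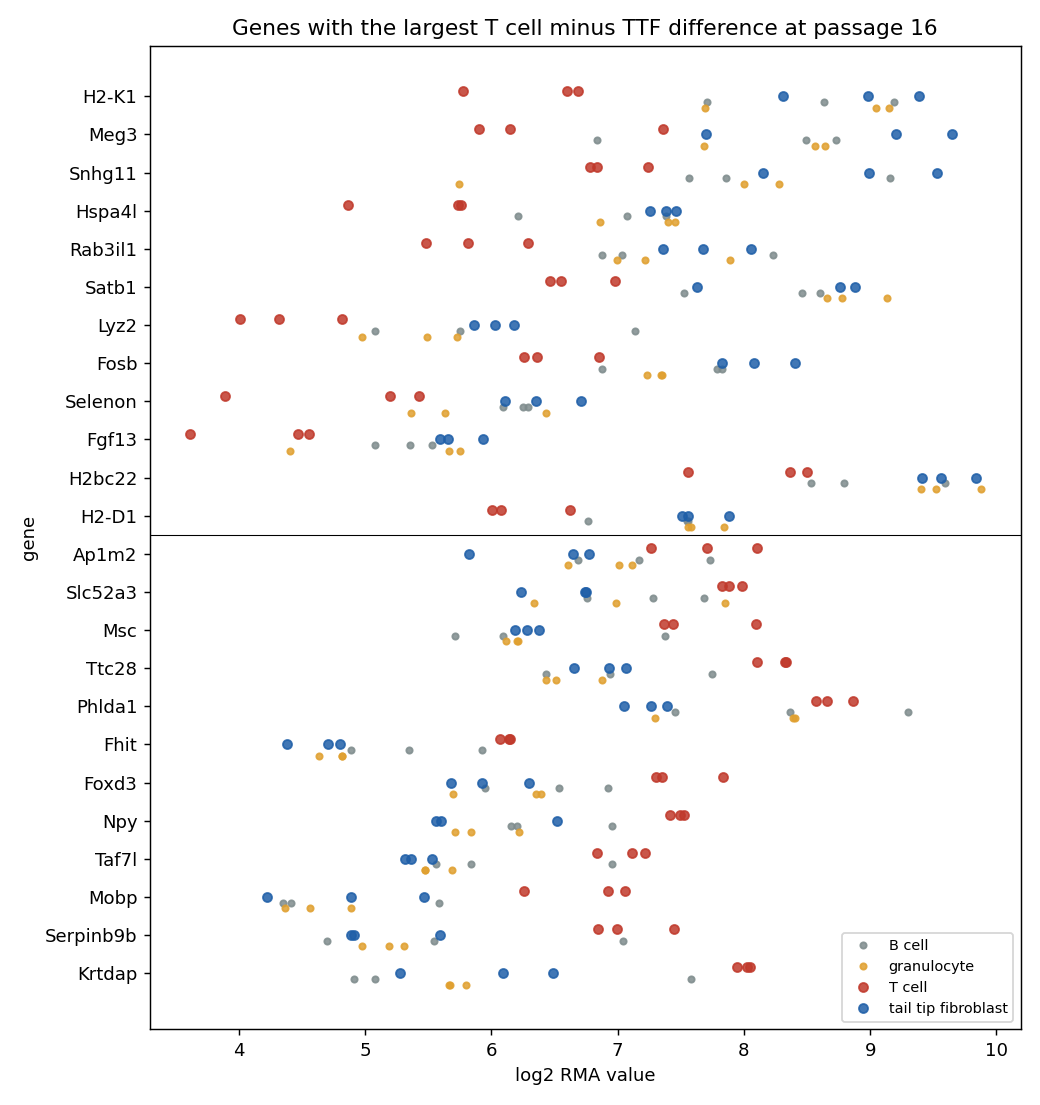
Log2 RMA value of each clone at passage 16 for the 12 genes with the largest difference in each direction. Large red and blue points are T cell and TTF clones and small points are B cell and granulocyte clones. T cell and TTF points do not overlap for any of the 24 genes, as the selection required, and 1 B cell clone lies near the T cell clones for Krtdap, Serpinb9b and Taf7l.

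The class I heavy chain gene H2-K1 had the largest called difference. Its value was 6.69, 6.60 and 5.78 in T cell clones 1 to 3 and 9.38, 8.98 and 8.31 in TTF clones 1 to 3. All T cell clones were below all TTF clones, by a mean log2 of -2.54 ± 0.40 (SE, adjusted p = 0.00165), which is 5.81-fold lower. H2-D1, the other classical heavy chain gene measured, was at 6.62, 6.01 and 6.08 in T cell clones and at 7.51, 7.89 and 7.56 in TTF clones. Again the groups did not overlap, with a difference of -1.42 ± 0.21 (adjusted p = 0.000897). B cell and granulocyte lines at passage 16 averaged 8.51 ± 0.75 (SD, n = 3) and 8.63 ± 0.81 for H2-K1 and 7.29 ± 0.45 and 7.66 ± 0.16 for H2-D1, closer to TTF lines than to T cell lines.

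These genes belong to a family of near-identical sequences, and their probe sets did not move together. Of the 4 probe sets of H2-K1, the others were at -1.12, -0.88 and 0.12, and of the 5 of H2-D1 the others ran from -0.27 to 0.35. All but 1 carry the array maker's mark for probes that can match several transcripts, so which family member gave the signal is uncertain. When the probe sets of a gene were averaged, H2-K1 was at -1.10 ± 0.22 (adjusted p = 0.0143) and H2-D1 at -0.21 ± 0.22 (adjusted p = 0.72), which is no longer a call. With 1 probe set per gene, these were the 2 called of the 23 measured genes of class I antigen presentation, both lower. Over all genes 0.534% were called lower. Of the 23 values 15 were negative. The median of the list was -0.08, against 0.03 for all genes. Psmb8 and Psmb9, inducible subunits of the immunoproteasome, were at -0.45 ± 0.31 (adjusted p = 0.557) and -0.44 ± 0.19 (adjusted p = 0.301), and the peptide-loading factor Tapbp at -0.22 ± 0.22 (adjusted p = 0.701). Among 34 genes of the interferon response 0 were called by limma, and the median was -0.02. Of these 7 were lower and 0 higher at an unadjusted p under 0.05, against 7.17% and 6.15% of all genes.

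Because the probe sets called carry the names of H2-K1 and H2-D1, the sequences just upstream of the starts of these genes are shown, from RefSeq on GRCm38.p6. Class I promoters are known for an upstream enhancer bound by NF-kB proteins and an interferon response element beside it. The H2-K1 stretch is chr17:34000369-34000518 on the minus strand and spans bases 171 to 22 before the start, by the first of 2 start sites in that table. The H2-D1 stretch is chr17:35262863-35263012 on the plus strand, bases 231 to 82 before the start. Capitals mark the longest run of bases that both promoters hold.
H2-K1: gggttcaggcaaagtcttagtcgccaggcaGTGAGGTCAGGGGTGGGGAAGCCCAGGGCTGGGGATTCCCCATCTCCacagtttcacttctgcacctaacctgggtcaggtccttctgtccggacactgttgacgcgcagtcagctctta
H2-D1: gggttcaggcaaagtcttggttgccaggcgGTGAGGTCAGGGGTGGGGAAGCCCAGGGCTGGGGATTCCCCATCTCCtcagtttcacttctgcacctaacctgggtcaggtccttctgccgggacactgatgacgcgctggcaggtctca
The run is 47 bases long, and the stretches carried the same base at 139 of 150 places. Searched on both strands, the run occurs in 3 of the 32851 promoter windows of the table (0.00913%), all of H2-K1 or H2-D1. Of the 97 called genes 78 have a window there. The match describes the sequence, and shows nothing of what was bound there in these cells.

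In the imprinted Dlk1-Dio3 domain Meg3 was lower in T cell lines, the 1 of 3 measured genes that passed the test, and all 3 values were negative. Meg3 was at 6.15, 5.91 and 7.36 in T cell clones and at 9.20, 7.70 and 9.65 in TTF clones. The ranges did not overlap but came within a log2 of 0.34 of each other, at T cell clone 3 and TTF clone 2. The difference was -2.38 ± 0.49 (SE, adjusted p = 0.0148), and it was not called without T cell clone 1 (adjusted p = 0.0614) or 2 (0.0639) or without TTF clone 1 (0.103) or 3 (0.0822). Its second probe set was at -2.10 and the other 2, with lower signal, at -0.31 and 0.29, and the mean over the probe sets was not called (-1.12 ± 0.31, adjusted p = 0.0805). Rian, transcribed from the same maternal copy, was at 5.37, 5.43 and 5.14 in T cell clones and at 7.05, 7.29 and 8.12 in TTF clones. All T cell values of Rian were below all TTF values, but the difference of -2.18 ± 0.66 did not pass the test (adjusted p = 0.111). It passed when only the 6 arrays were fitted (adjusted p = 0.0469). It was not called after quantile or cyclic loess normalization (adjusted p = 0.104 and 0.106) or without granulocyte clone 3 in the fit (0.0604). The other probe sets of Rian were at -1.36 and -0.25, and the mean over its probe sets was not called (-1.26 ± 0.45, adjusted p = 0.191). Dlk1, the paternally expressed gene that encodes a Notch-like membrane protein, was at -1.02 ± 0.29 (adjusted p = 0.0855). Of 23 measured genes from other imprinted domains 0 were called by limma, and the median was -0.23. Of these 3 were lower at an unadjusted p under 0.05, against 7.17% of all genes.

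The heat shock protein gene Hspa4l, of the Hsp110 family, had one of the smallest adjusted p-values. It was at 5.74, 5.76 and 4.87 in T cell clones and at 7.47, 7.38 and 7.26 in TTF clones. The groups were separated by -1.91 ± 0.27 (adjusted p = 0.000897), although its other probe set was at -0.23. Satb1, a chromatin organizer known for its role in thymocytes, was lower in the lines derived from T cells. Its values were 6.98, 6.55 and 6.47 in T cell clones against 8.88, 8.76 and 7.63 in TTF clones (-1.76 ± 0.29, adjusted p = 0.00232), and its other 2 probe sets were also negative, at -1.63 and -0.66. The histone gene H2bc22 was lower by -1.46 ± 0.23 (adjusted p = 0.00165), and the LIM-domain gene Limd2, named here after its values were seen, by -1.20 ± 0.18. Their second probe sets were at -0.48 and -0.15. With the probe sets averaged the differences were smaller, at -1.07 for Hspa4l, -0.97 for H2bc22 and -0.68 for Limd2, and still called (adjusted p from 0.00952 to 0.0474). These 4 calls held without any 1 of the 6 clones.

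Fosb, a component of the AP-1 transcription factor, was at 6.36, 6.85 and 6.26 in T cell clones and at 8.40, 7.83 and 8.08 in TTF clones (-1.61 ± 0.29, adjusted p = 0.00464). Without TTF clone 1 its adjusted p was 0.0541. It was the 1 called of 19 immediate early genes, whose median was 0.04, and -0.05 after quantile normalization. The noncoding RNA host gene Snhg11 (-1.93 ± 0.46, adjusted p = 0.0354) was not called without T cell clone 1 or 3 or TTF clone 1 or 3 (0.0919 to 0.232). Rab3il1, an exchange factor for Rab GTPases (-1.83 ± 0.39, adjusted p = 0.0206), lost its call without the same clones (0.0523 to 0.134). Lyz2, which encodes the lysozyme of macrophages and granulocytes, was lower by -1.64 ± 0.34 (adjusted p = 0.0148; 0.0563 to 0.101 without T cell clone 1 or 3 or TTF clone 1 or 2). It was the 1 called of 27 granulocyte genes, 21 of which had positive values (14 without T cell clone 3). Selenon, a selenoprotein of the endoplasmic reticulum, differed by -1.55 ± 0.34 (adjusted p = 0.0255), but by -1.08 without T cell clone 3 (0.165), and was not called without TTF clone 1 or 2 (0.102 and 0.116). Fgf13, a fibroblast growth factor homologue that stays inside the cell, differed by -1.52 ± 0.30 (adjusted p = 0.0111; 0.0833 without T cell clone 3 and 0.0774 without TTF clone 1), and its second probe set was at 0.22 (the mean of both at -0.65, adjusted p = 0.021).

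Ddit3 and Ddit4, from different lists, were each the 1 called gene of its list. Ddit3, the CHOP transcription factor of the unfolded protein response, was lower by -1.21 ± 0.25 (adjusted p = 0.0151), among 24 genes of the amino acid and stress response. It was not called without T cell clone 1 (0.0699) or TTF clone 1 or 3 (0.134 and 0.0523). Ddit4, an inhibitor of mTORC1 signalling, was lower by -0.69 ± 0.17 (adjusted p = 0.0382), among 30 hypoxia and glycolysis genes, and it kept its call only without T cell clone 2.

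Among the genes higher in T cell lines, Krtdap, known from differentiating keratinocytes, had the largest difference. It was at 7.95, 8.05 and 8.02 in T cell clones and at 6.10, 5.28 and 6.49 in TTF clones (2.05 ± 0.41, adjusted p = 0.0137; 0.0514 to 0.0965 without T cell clone 3 or TTF clone 1 or 2). The T cell clones lay within 0.10 of each other and the TTF clones were spread. Serpinb9b, a serine protease inhibitor, was higher by 1.96 ± 0.40 (adjusted p = 0.0145; 0.063 to 0.101 without T cell clone 1 or TTF clone 1 or 2). Mobp, a myelin protein gene of oligodendrocytes, was higher by 1.89 ± 0.34 (adjusted p = 0.00464; 0.0656 without TTF clone 1), and its second probe set was at 1.05. Taf7l, a germ cell paralogue of the basal transcription subunit TAF7, was at 6.84, 7.22 and 7.11 in T cell clones and at 5.32, 5.37 and 5.53 in TTF clones. That difference was 1.65 ± 0.29 (adjusted p = 0.00464), with a wide gap between the groups and calls in all 6 fits that left out a clone.

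Npy, the gene for neuropeptide Y, was at 7.42, 7.53 and 7.50 in T cell clones and at 5.56, 5.60 and 6.52 in TTF clones (1.59 ± 0.24, adjusted p = 0.000897). The tumour suppressor gene Fhit was at 6.07, 6.15 and 6.14 in T cell clones and at 4.38, 4.80 and 4.71 in TTF clones (1.49 ± 0.24, adjusted p = 0.00165). Both genes kept their calls without any 1 clone, and both had T cell values within a narrow band. Foxd3, a transcription factor of pluripotent cells and neural crest, was higher by 1.53 ± 0.29 (adjusted p = 0.00837; 0.0539 without T cell clone 3 and 0.0716 without TTF clone 1). Phlda1, a growth-factor-responsive gene, was higher by 1.46 ± 0.30 (adjusted p = 0.0146; 0.0541 to 0.0577 without any 1 TTF clone), and Ttc28 by 1.37 ± 0.30 (adjusted p = 0.0238; 0.0598 to 0.104 without T cell clone 2 or 3 or TTF clone 1 or 2). Msc, a basic helix-loop-helix repressor, was higher by 1.35 ± 0.29 (adjusted p = 0.0206; 0.0864 to 0.113 without T cell clone 3 or TTF clone 1 or 2). Slc52a3, a riboflavin transporter, was higher by 1.32 ± 0.31 (adjusted p = 0.0351) and was called in none of the fits that left out a clone (0.0609 to 0.155). Ap1m2, an adaptor subunit of epithelial cells, was higher by 1.28 ± 0.28 (adjusted p = 0.0215; 0.113 and 0.114 without T cell clone 3 or TTF clone 3).

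A few matrix and fibroblast genes were lower in T cell lines. In bulk RNA, fewer cells of a type, such as feeders left after preplating, and less RNA per cell cannot be told apart. Of 37 measured genes of the fibroblast and feeder list 4 were called, all lower, where 63 of 11807 genes (0.534%) were called lower. The count was 3 without T cell clone 3, where 26 of 11807 genes were called lower. It was 7 without granulocyte clone 3 in the fit, where 257 of 11807 genes were called lower. At an unadjusted p under 0.05, 14 were lower and 2 higher (7.17% and 6.15% of all genes), and 25 of 37 values were negative. The median was -0.37, against 0.03 for all genes. Col1a1, a chain of type I collagen, was at 8.57, 8.10 and 8.95 in T cell clones and at 9.73, 9.62 and 9.90 in TTF clones, with no overlap (-1.21 ± 0.28, adjusted p = 0.0286; 0.0662 to 0.121 without any clone but T cell clone 3). Col6a1, of type VI collagen, was lower by -1.32 ± 0.29 (adjusted p = 0.0255; 0.0564 to 0.141 without any clone but T cell clone 3). Serpinf1, a secreted inhibitor of vessel growth, was lower by -1.14 ± 0.22 (adjusted p = 0.0111; 0.0533 without T cell clone 3 and 0.0531 without TTF clone 2). With the mean of its 2 probe sets it was at -0.47 (adjusted p = 0.366). Twist1, a mesenchymal transcription factor, was lower by -0.81 ± 0.20 (adjusted p = 0.0438) and was called in none of the fits that left out a clone (0.0631 to 0.226). Col3a1, of type III collagen, did not pass (-1.17 ± 0.30, adjusted p = 0.0576), nor did the matrix protein gene Mgp (-1.07 ± 0.34, adjusted p = 0.125), which reached -1.52 and an adjusted p of 0.0321 without T cell clone 3.

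The mean of the list was 7.10 ± 0.16 (SD, n = 3; 6.93 to 7.25) in T cell lines and 7.47 ± 0.07 (7.43 to 7.55) in TTF lines, with no overlap. B cell lines averaged 7.53 ± 0.14 and granulocyte lines 7.41 ± 0.07, so the T cell lines had the lowest mean of the 4 origins. At passage 4 the order of T cell and TTF lines was the other way round, at 7.63 ± 0.09 and 6.96 ± 0.10. With this mean as a covariate, an alternative added after the data were seen, 45 genes were called and 35 of the 97 remained. This mean itself separated the groups compared, so the fit cannot show which differences follow it. The SE of H2-K1, for example, rose from 0.40 to 0.48, and a call can be lost through a wider error alone. H2-K1 (-2.97 ± 0.48, adjusted p = 0.00826), H2-D1 (-1.41 ± 0.26, adjusted p = 0.0223), Hspa4l, Satb1, Fosb, Npy and Fhit were among those called. Meg3 (-2.0 ± 0.60, adjusted p = 0.147), Taf7l (1.44 ± 0.36, adjusted p = 0.0747), Lyz2 (-1.41 ± 0.42, adjusted p = 0.144) and Krtdap (1.71 ± 0.51, adjusted p = 0.141) were not. The 4 genes of the list were not called either, which is in part built in, since they enter the mean.

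No gene of the core pluripotency list passed the test between the origins. Of 27 measured genes 0 were called by limma (1 without granulocyte clone 3 in the fit, where 421 of 11807 genes were called). At an unadjusted p under 0.05, 5 were higher and 0 lower, against 6.15% and 7.17% of all genes. Of the values 23 were positive, with a median of 0.20. Nanog differed by 0.26 ± 0.26 (adjusted p = 0.696), Sox2 by 0.05 ± 0.13 (adjusted p = 0.896) and Pou5f1 by 0.13 ± 0.13 (adjusted p = 0.7). The nearest to a call was the nuclear receptor gene Nr5a2 at 1.23 ± 0.31 (adjusted p = 0.0548). Lin28a, an RNA-binding protein that blocks let-7 maturation, was at 9.59, 9.32 and 8.74 in T cell clones and at 10.14, 10.56 and 9.78 in TTF clones, a difference of -0.94 ± 0.47 that did not pass (adjusted p = 0.39).

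Markers of T cells gave no call. The 4 called genes of the fibroblast and feeder list were lower in T cell than in TTF lines. The mean of that list in B cell (7.53) and granulocyte lines (7.41) was near that of TTF lines (7.47). At passage 4 it was higher in T cell than in TTF lines. Of 25 T cell genes 0 were called by limma and 1 was at an unadjusted p under 0.05. This was Thy1, lower in T cell lines and also a member of the fibroblast and feeder list. The median of the T cell list was 0.11, but -0.01 after cyclic loess normalization and -0.05 without T cell clone 3. Cd3e, a chain of the T cell receptor complex, differed by 0.01 ± 0.25 (adjusted p = 0.986) and by -0.27 without T cell clone 3, and the receptor kinase gene Zap70 by 0.11 ± 0.25 (adjusted p = 0.883). Of 23 B cell genes 0 were called and 4 were at an unadjusted p under 0.05. Over all genes the share at an unadjusted p under 0.05 was 13.3%.

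Germline genes were called once, for Taf7l among 20, with a list median of 0.45 and 8 higher and 1 lower at an unadjusted p under 0.05, against 6.15% and 7.17% of all genes. Rhox6 and Rhox9, homeobox genes of the X chromosome, were at 1.18 ± 0.30 (adjusted p = 0.0548) and 1.198 ± 0.35 (adjusted p = 0.0947), and the RNA-binding protein gene Dazl was at 1.61 ± 0.57 (adjusted p = 0.179). Without granulocyte clone 3 in the fit 4 germline genes were called, all higher, where 164 of 11807 genes were called higher. All 8 measured genes of the two-cell-like state had positive values, with a median of 0.44 (7 of 8 positive after quantile or cyclic loess normalization). Of these 0 were called by limma and 1 was at an unadjusted p under 0.05, against 13.3% of all genes. Genes of cholesterol synthesis had a median of -0.40 over 16 genes, with 0 called. At an unadjusted p under 0.05, 4 were lower and 1 higher, against 7.17% and 6.15% of all genes. Cytosolic ribosomal protein genes had a median of -0.02 over 65.

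**Figure D2:**
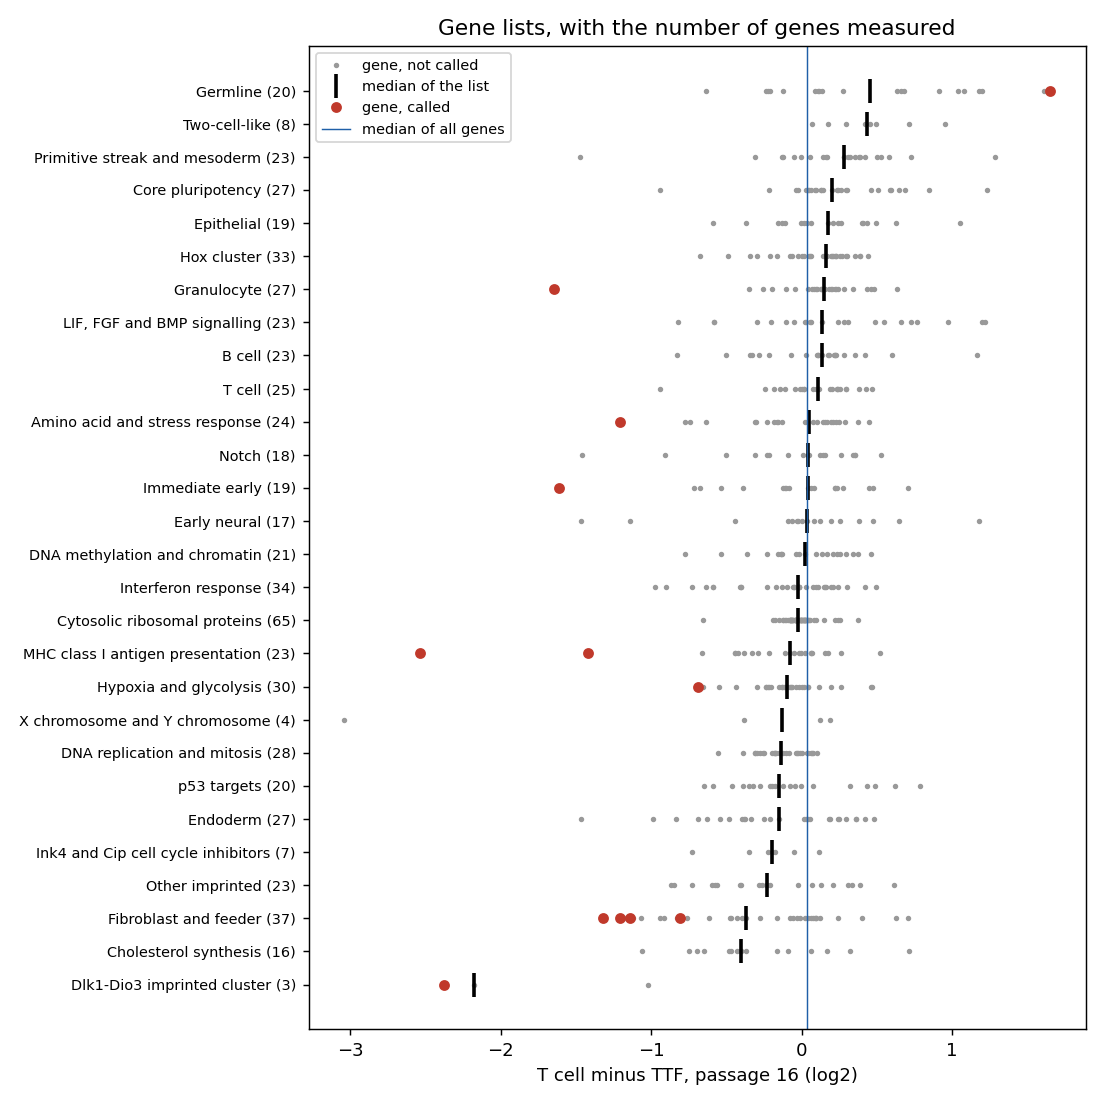
T cell minus TTF difference at passage 16 (log2) of every measured gene in 28 lists, with the number measured in parentheses. Grey points are genes not called, red points are called genes and black bars are list medians; the blue line is the median of all genes, 0.03. The 4 called fibroblast genes and both called class I genes lie to the left, and Taf7l in the germline list is the 1 called gene to the right.

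The B cell and granulocyte arrays of passage 16, which were in neither group compared, show where the 97 genes stood in other lines. The T cell mean lay outside the range of the other 3 origins for all 97 genes (48.0% of all genes), and the TTF mean for 70 (44.0%). Both shares come from genes chosen for a T cell to TTF difference. The granulocyte mean was nearer to the TTF mean for 88 of 97 genes, against 45.3% of all genes, and the B cell mean for 79 of 97, against 65.5%.

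Single B cell clones differed in this. Clone 1 was nearer to the T cell mean for 65 of 97 genes, while clones 2 and 3 were nearer for 10 and 13. Of the 34 genes higher in T cell lines, B cell clone 1 was nearer to the T cell mean for 30, and of the 63 lower genes for 35 (55.6%). Over all genes the shares of the 3 clones were 44.5%, 33% and 42.4%. Krtdap was at 7.58 in B cell clone 1 and at 5.08 and 4.91 in clones 2 and 3, and Taf7l at 6.95 against 5.84 and 5.57. Meg3 was at 6.84 against 8.49 and 8.73. Granulocyte clone 3 was nearer to the T cell mean for 43 of 97 genes, but for 61.3% of all genes, and granulocyte clones 1 and 2 for 8 and 2.

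**Figure D3:**
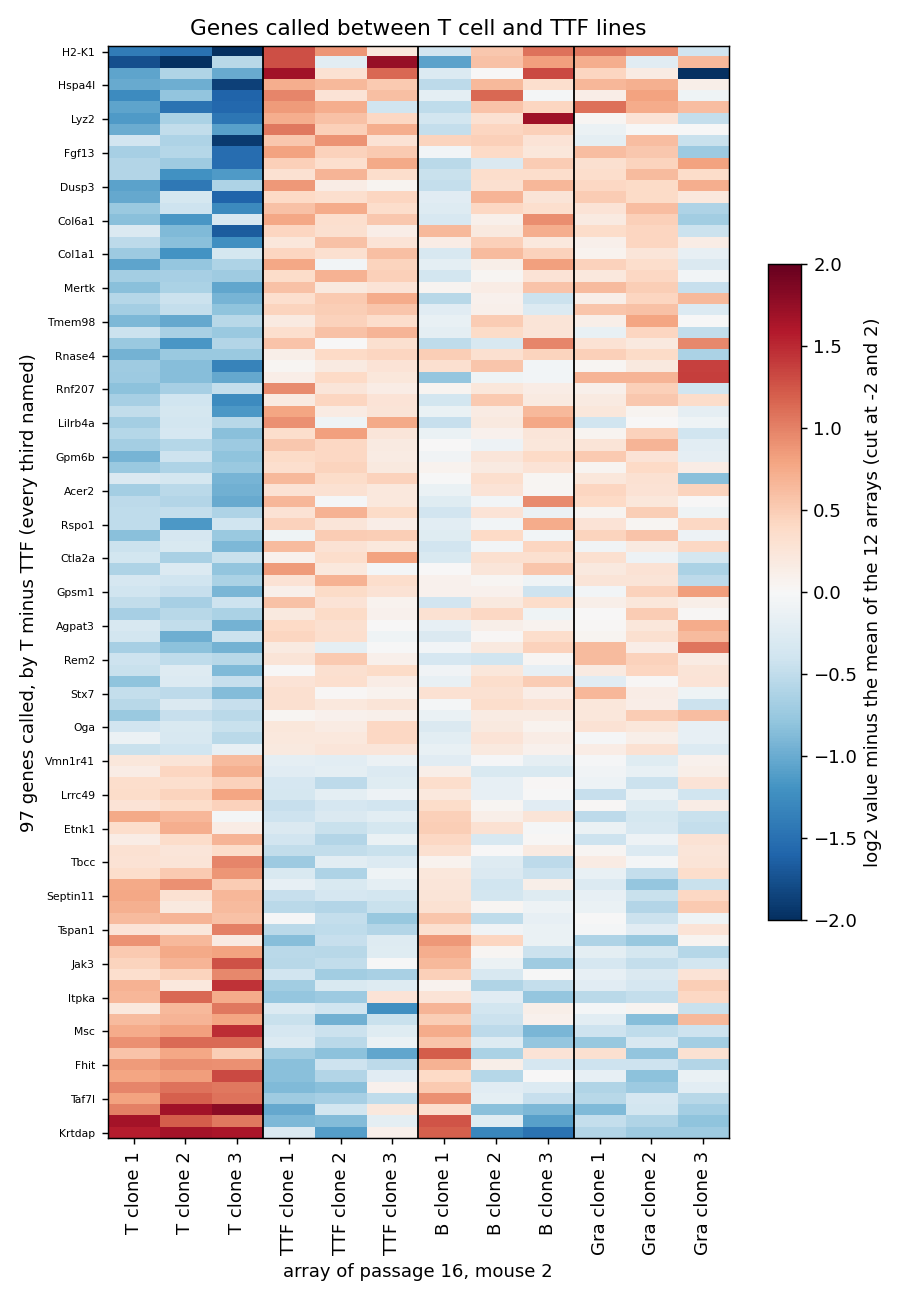
The 97 called genes (rows, ordered by the T cell minus TTF difference) in the 12 arrays of passage 16 (columns, by origin and clone). Colours are the log2 value minus the mean of the 12 arrays, cut at -2 and 2. The first 3 columns oppose the next 3 by selection, and B cell clone 1 lies nearer to the T cell mean for 30 of the 34 higher and 35 of the 63 lower genes.

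The difference between T cell and TTF lines was another one at passage 16 than at passage 4. At passage 4, 1506 genes (12.8%) were called between these origins, against 97 (0.822%) at passage 16. Of the 1506, 816 (6.91%) were higher and 690 (5.84%) lower in T cell lines. The difference itself changed for 1341 genes (11.4%): 560 (4.74%) had a higher T cell minus TTF value at passage 16 than at passage 4, and 781 (6.61%) a lower one. This count was 863 without TTF clone 2 of passage 4, 2264 without granulocyte clone 3 of passage 16, and 178 once the mean of the fibroblast list described above was a covariate. That mean differed between these groups at both passages, in opposite order, so the 178 cannot show which changes follow it. Of the 97 genes, 70 had the opposite sign at passage 4 (60.6% of all genes did). Called at passage 4 in the opposite direction were 29 of the 97 (29.9%, against 9.1% of all genes). In the same direction 3 were called (3.1%, against 3.6%). Among all 1506 genes called at passage 4, 1077 (71.5%) had the opposite sign at passage 16.

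**Figure D4:**
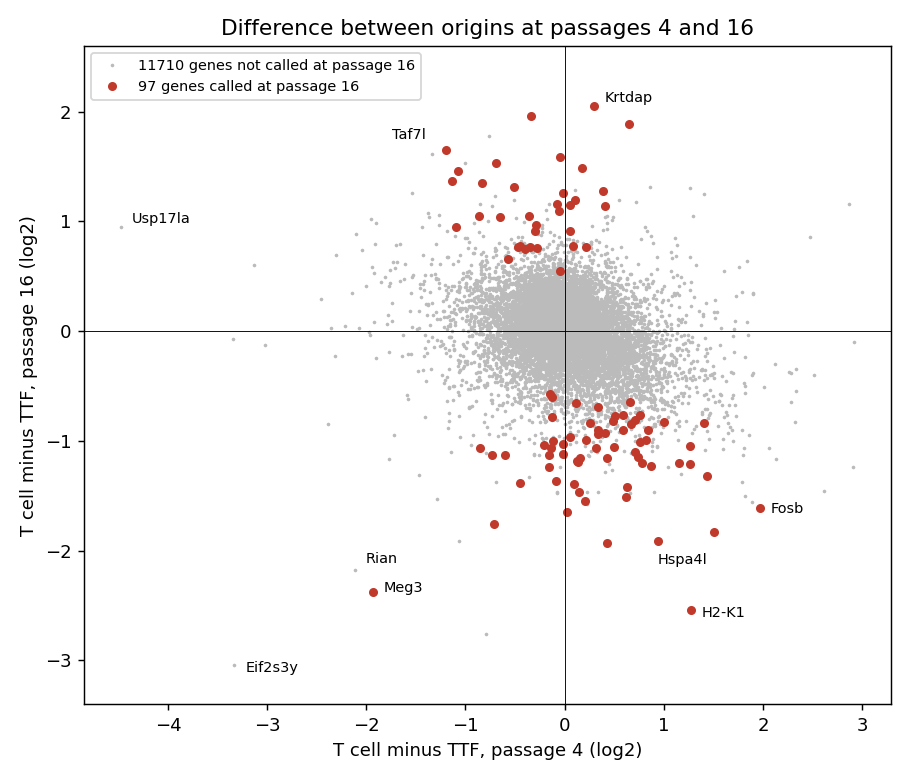
T cell minus TTF difference (log2) at passage 4 (horizontal) and passage 16 (vertical) for 11807 genes, with the 97 genes called at passage 16 in red. H2-K1, Hspa4l and Fosb lie to the lower right, positive at passage 4 and negative at passage 16, and Meg3 at the lower left is negative at both.

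H2-K1 was higher in T cell lines at passage 4 and lower at passage 16. It was at 8.48, 8.75 and 8.26 in T cell clones of passage 4 and at 6.96, 6.69 and 8.02 in TTF clones (1.27 ± 0.40, adjusted p = 0.0335), and the change of the difference was -3.81 ± 0.56 (adjusted p = 8.98e-05). T cell lines had the higher mean at passage 4 and TTF lines at passage 16, with no overlap between clones at either. H2-D1 followed the same order, from 0.63 ± 0.21 (adjusted p = 0.0415) to -1.42, a change of -2.05 (adjusted p = 6.12e-05). Fosb went from 1.97 ± 0.29 (adjusted p = 5.33e-05) to -1.61. T cell clones of passage 4 were at 8.76, 9.16 and 9.03, the highest of the 4 origins, and those of passage 16 were the lowest. Hspa4l went from 0.94 ± 0.27 (adjusted p = 0.0228) to -1.91 and Col1a1 from 1.27 ± 0.28 (adjusted p = 0.00265) to -1.21. Taf7l went the other way, from -1.20 ± 0.29 (adjusted p = 0.00647) to 1.65. T cell lines stood at 6.67 ± 0.31 (SD, n = 3) at passage 4 and 7.06 ± 0.20 at passage 16, and TTF lines at 7.87 ± 0.58 and 5.41 ± 0.11.

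Meg3 kept its direction between T cell and TTF lines. It was lower in T cell lines at passage 4 as well, by -1.94 ± 0.49 (adjusted p = 0.00909), with values of 8.64, 7.95 and 7.48 against 9.72, 10.15 and 9.995 in TTF lines. The 2 differences of Meg3 did not differ by the test (-0.44 ± 0.70, adjusted p = 0.741). At passage 4 its T cell mean of 8.02 ± 0.58 (SD, n = 3) was above those of B cell (6.87 ± 0.89) and granulocyte lines (6.89 ± 0.42). At passage 16 the T cell mean was 6.47 ± 0.78, below those of B cell (8.02 ± 1.03) and granulocyte lines (8.30 ± 0.53). Rian was at -2.11 ± 0.66 at passage 4 (adjusted p = 0.0319).

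**Figure D5:**
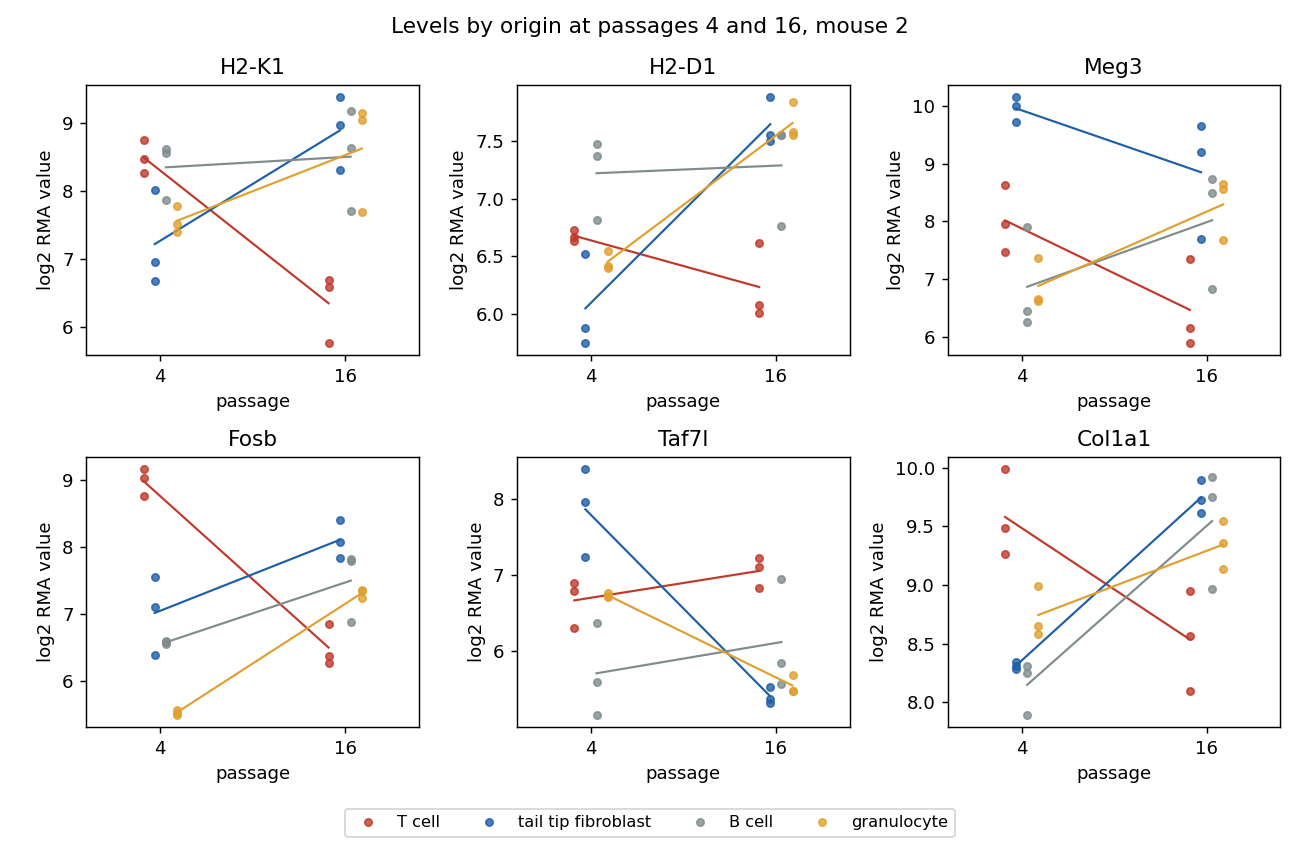
Log2 RMA values of H2-K1, H2-D1, Meg3, Fosb, Taf7l and Col1a1 at passages 4 and 16 in the 4 origins of mouse 2. Points are clones (n = 3) and lines join group means. T cell lines (red) and TTF lines (blue) exchange order in every panel except Meg3, where T cell lines are lower at both passages.

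Some genes with the largest change were not called at passage 16. Usp17la, a deubiquitinase gene of the two-cell-like state, was lower in T cell lines at passage 4 by -4.48 (adjusted p = 1.15e-07). At passage 16 it was at 9.16, 9.66 and 9.31 in T cell clones and at 7.89, 7.95 and 9.42 in TTF clones, which overlap (0.95 ± 0.43, adjusted p = 0.324). Tmem106b, a lysosomal membrane protein gene, went from 2.91 at passage 4 to -1.24 ± 0.35 (adjusted p = 0.087), and the Notch ligand gene Dll1 from 2.61 to -1.46 ± 0.44 (adjusted p = 0.106). For Tmem106b, Dll1 and the peptidase gene Dpp7 (-1.56 ± 0.48, adjusted p = 0.114) the clones of passage 16 did not overlap.

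At passage 10, measured on another array platform and normalized separately, 11 of 12394 genes (0.0888%) were called between these origins, with 2033 at an unadjusted p under 0.05. Of the 94 genes among the 97 that were measured there, 42 had the same sign and 52 the opposite one, near the 46.6% and 53.4% of all genes. H2-K1 was at 0.46 ± 0.11 (adjusted p = 0.112), H2-D1 at 0.21 (adjusted p = 0.326) and Fosb at 0.21 (adjusted p = 0.635), all positive. Meg3 was at -0.60 ± 0.13 (adjusted p = 0.104), with T cell clones at 10.23, 10.45 and 10.62 below all TTF clones at 10.99, 11.11 and 10.98, and Rian was at -0.39 (adjusted p = 0.243). Levels are not compared across the platforms.

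The largest difference of all 11807 genes did not pass the test. Eif2s3y, a translation factor gene of the Y chromosome, named here after its values were seen, was at 4.89, 5.90 and 5.33 in T cell clones and at 6.77, 9.27 and 9.20 in TTF clones. The groups did not overlap, but the difference of -3.04 ± 1.37 had an adjusted p of 0.321. The gene varied between clones of other groups, from 5.17 to 9.46 among B cell clones and from 3.47 to 7.97 among granulocyte clones of passage 16. Xist, the noncoding RNA that silences an X chromosome, differed by -0.39 ± 0.29 (adjusted p = 0.587).

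Over all genes, the arrays of different origin were slightly farther apart than those of the same origin. The mean of 1 minus Pearson's r was larger between origins by 0.00462, with an exact two-sided permutation p of 0.1 over 10 splits, the smallest that 3 clones against 3 can give.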

How the data were processed

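Per the submitters' processing notes the arrays were processed with RMA, and the deposited values are log2 probe set values; the RMA version and annotation are not given in the sources used here. The authors deposited 2 tables, normalized separately: 33 arrays of passages 4, 6 and 16, and 12 arrays of passage 10. In the first, 18003 of 22690 probe sets had 1 symbol, 287 several and 4400 none. For each gene the probe set with the highest mean was used (11807 genes), with no filter on dim genes. Symbols are those of the platform annotation, and 11796 of 11807 are in the RefSeq table.

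limma 3.58.1 (R 4.3.3; lmFit, eBayes) fitted 1 mean per group over the 33 arrays, in 11 groups with 22 residual degrees of freedom. Genes were called at an adjusted p under 0.05 over all genes. Errors of differences are SE from this fit. On data simulated for the passage 16 comparison over 11807 genes, 9 of 50 genes shifted by a log2 of 0.5 were recovered. Of those shifted by 1, 35 of 50 were recovered, and of those shifted by 2, 50 of 50, with 5 false calls. Granulocyte clone 3 and T cell clone 3 of passage 16 (mouse 2) had a mean r of 0.9222 and 0.9796 with their own groups. Whether the simulated spread matches such arrays was not tested, so the 5 false calls are no check of the genes called here. The number of arrays limits the precision. Named genes were called genes whose clones do not overlap, the 12 with the largest difference in each direction, up to 4 called members of each list, 16 genes of interest, and the 6 largest changes between passages in each direction. Of the genes of interest B2m and Col1a2 were not among the 11807 genes and have no value here. Members and lists were chosen with earlier results of these data known. Figures used matplotlib 3.10.9 in Python 3.11.15.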

Additional observations from a re-analysis of the deposited data

Results flagged for a closer look

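For the genes below, the T cell minus TTF difference at passage 16 differed from that at passage 4 by the interaction test in limma (adjusted p under 0.05). The values are passage 16 minus passage 4 on the log2 scale, and n = 3 clones in each of the 4 groups. Lower at passage 16 were Tmem106b by -4.15, Dll1 by -4.07, H2-K1 by -3.81, Fosb by -3.59, Dpp7 by -3.45 and Rab3il1 by -3.34. Fibroblast and matrix genes changed in the same direction: Col3a1 by -3.30, Mgp by -2.88, Col6a1 by -2.76, Col1a1 by -2.48, Serpinf1 by -1.89 and Twist1 by -1.51. So did Hspa4l by -2.85, Lin28a by -2.80, Snhg11 by -2.36, Ddit3 by -2.35, Fgf13 by -2.14 and H2-D1 by -2.05. Selenon changed by -1.75, Lyz2 by -1.67, H2bc22 by -1.61 and Ddit4 by -1.03.

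Higher at passage 16 were Usp17la by 5.43, AF067061 by 3.74, D13Ertd608e by 3.27, Gm20767 by 3.00, Fbp1 by 2.99 and Rapgef3 by 2.97. Taf7l changed by 2.85, Phlda1 by 2.54, Ttc28 by 2.51, Serpinb9b by 2.30, Foxd3 by 2.22 and Msc by 2.18. Slc52a3 changed by 1.83, Npy by 1.64 and Fhit by 1.31. The mean of the fibroblast and feeder list moved with this contrast, from 7.63 in T cell and 6.96 in TTF lines at passage 4 to 7.10 and 7.47 at passage 16.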

How the results depend on the processing

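The 97 genes called between T cell and TTF lines became 421 when granulocyte clone 3 (passage 16) was dropped from the 33 arrays, 24 with only the 6 arrays and 0 with only the 12 arrays of passage 16 from mouse 2. Leaving out 1 clone gave 21 to 111. Of alternatives added after the data were seen, leaving out T cell clone 3 and granulocyte clone 3 gave 176, the 12 arrays without granulocyte clone 3 gave 34 and the fibroblast list mean as a covariate 45. That list mean differed between the groups compared, so fits with it cannot show which differences follow it. For the 1341 genes whose difference changed between passages, the counts were 2264 without granulocyte clone 3, 2313 over all probe sets, 178 with that covariate and 863 to 1480 without 1 clone. Other normalizations, the filter on dim genes, the mean of probe sets and a trended prior left both counts within 1.5 times. The distance between origins was 0.00451 to 0.00462 over all genes, 0.009 without dim genes and 0.0322 over the 2000 most variable genes, each with the smallest exact p possible. Clone numbers were read as names, and whether a number marks the same line at passages 4 and 16 is not established. Deviations of same-numbered T cell and TTF clones of passage 16 correlated at -0.179, 0.187 and 0.122. Between passages 16 and 4 the correlations were 0.41, -0.155 and 0.16 for T cell clones. For TTF clones they were -0.077, -0.317 and -0.223. With clone number as a replicate block the counts were 103 and 1309, and with lines as a random block 97 and 1349.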
